A study of Daphnia magna with 20 samples.

Results

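Adult *Daphnia magna* females were compared at the end (F3) and in the middle (F2) of an intermoult cycle, the interval between moults of the carapace. *D. magna* is a freshwater crustacean whose females usually reproduce without males. In each adult cycle a clutch of eggs is laid into the brood pouch and develops there, while oocytes in the ovary are loaded with yolk for the next clutch. Towards its end the old cuticle is replaced, the young are released, the female moults and the new eggs are laid. The comparison used the 3 arrays labelled FEMALE 3 and the 3 labelled FEMALE 2, which were 6 of the 20 arrays of the series, and all probes of the 41316 gene models on the array. The sample labels give an age of 18 days for F3 and 16 days for F2, whereas the design text of the series gives 16 and 15 days, so that the ages are uncertain.

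The females of both stages were untreated, carried the third clutch and belonged to a single clone, clone F according to the methods. F2 females were taken after the early part of the cycle and F3 females shortly before the moult, and embryos were flushed from the brood pouch before RNA was extracted. RNA came from the whole body, so that fewer cells of a type and less RNA per cell cannot be told apart. The other arrays were used here to set the results in context. They came from males (M), females that had just begun a cycle (F1), juveniles (J), early embryos (E1) and late embryos (E3). Their labelled ages were 12 hours for E1, 60 hours for E3, 4 days for J, 15 days for F1 and 16 days for M. The design text gives 14 days for F1. There were 2 arrays of M and 3 of every other stage. The labels do not say whether the arrays of a stage came from separate cultures, and p-values measure only the spread between these arrays.

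The array was a single-colour Agilent design, in which each spot carries a short probe and gives 1 fluorescence signal. A level is the log2 of that signal after quantile normalization, and a difference is F3 minus F2 on this scale, so that 1 unit is a doubling. A probe was tested when it exceeded the array's background, the 95th percentile of random probes that match no designed transcript, in every array of at least 1 stage. This left 76235 of 162718 probes, and 28459 of 41316 gene models. A probe was called when limma, fitted on all 20 arrays, gave a p under 0.05 after Benjamini-Hochberg adjustment and the change reached 1.5-fold. The gene models carry assembly identifiers, and 0 of them matched the RefSeq table of 28335 *D. magna* genes, so that results are given by count and for 4 identifiers, with no gene function.

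The share of gene-model probes above background was 42.0, 40.3 and 41.3% on the F3 arrays F31, F32 and F33, against 39.3, 40.3 and 39.0% on the F2 arrays F21, F22 and F23. The difference was 1.67 percentage points (two-sided exact permutation test, p = 0.1, the smallest that 3 against 3 arrays allow). The share that the scanner software marked well above local background ran the other way, from 47.0 to 58.8% in F3 and from 61.4 to 63.6% in F2, and its part in the results was not tested. After each probe's median over all arrays was subtracted, pairs of F3 arrays correlated at 0.718 (F31 and F32), 0.629 (F31 and F33) and 0.892 (F32 and F33) across tested probes, and pairs of F2 arrays at 0.829 to 0.876. Between the stages the correlations were 0.104 to 0.367. F31 thus stood farthest from its stage, and the results are also given without it.

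Between F3 and F2 females, 4693 probes were called, 6.16% of those tested. Of these, 810 rose in F3 (1.06% of tested probes) and 3883 fell (5.09%), so that 17.3% of the calls were higher. The decreases were also the larger changes. Probes that fell had a median difference of -3.07 (median SE 0.55), and probes that rose had a median of 1.55 (median SE 0.34). At an unadjusted p under 0.05 there were 12470 probes.

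**Figure D1:**
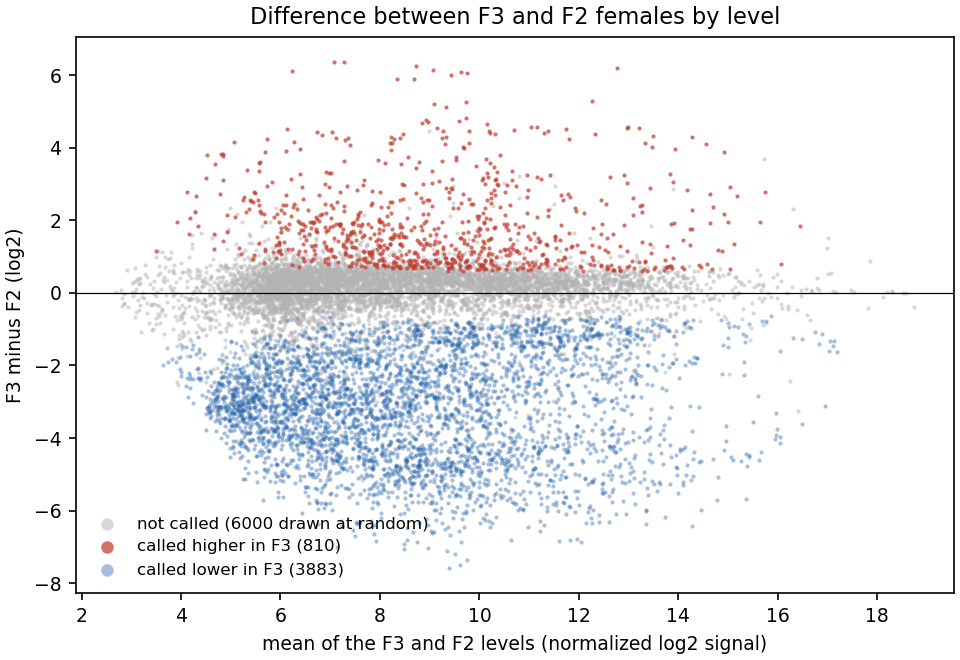
Difference between F3 and F2 (log2) against the mean level of the 6 arrays (normalized log2 signal), with 1 point per probe, for all 810 probes called higher, all 3883 called lower and 6000 others drawn at random. Probes called lower reach -7.57 and lie far below the main cloud, which is centred slightly above 0.

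Over all tested probes the balance was the opposite for small differences. The median difference was 0.19, 63.7% of probes were higher in F3, and the quartiles were -0.22 and 0.46. The 3 F3 arrays did not overlap with the 3 F2 arrays for 49.5% of the tested probes, with F3 higher for 32.9% and lower for 16.6%. Small increases were thus frequent, whereas large changes were mostly decreases. The 5th percentile of the differences was -1.97 and the 95th was 0.87.

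The size of the differences shows this without any test. A difference of at least 1.5-fold was found in 11666 probes upwards and 11403 downwards, which is about equal. At least 2-fold, there were 2701 upwards and 7382 downwards. At least 4-fold, there were 597 and 3752, and upward differences made up 13.7% of these. At least 16-fold, there were 77 and 1193.

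The number of calls, and its split, depended on which arrays gave the estimate of the spread. Fitted on the 6 arrays alone, the same rule called 14880 probes (19.5%), of which 7058 were higher (9.26%) and 7822 lower (10.3%). The share of higher calls was 47.4% there. The median SE of a difference was 0.19 in that fit and 0.47 in the fit of all arrays. E1, E3, J, F1 and M arrays from several slides and scan dates contributed to the latter, and the cause of its wider spread was not tested. Of the 4693 calls, 4634 were also called on the 6 arrays. Of at least 4-fold, there were 468 higher and 3549 lower calls on the 6 arrays, against 274 higher and 2939 lower in the fit of 20 arrays, so that the gap between the fits was wider for increases, and decreases prevailed in both. The calls of the fit of 6 arrays were smaller on the whole, and their median difference was 0.78 for higher and -1.80 for lower calls.

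**Figure D2:**
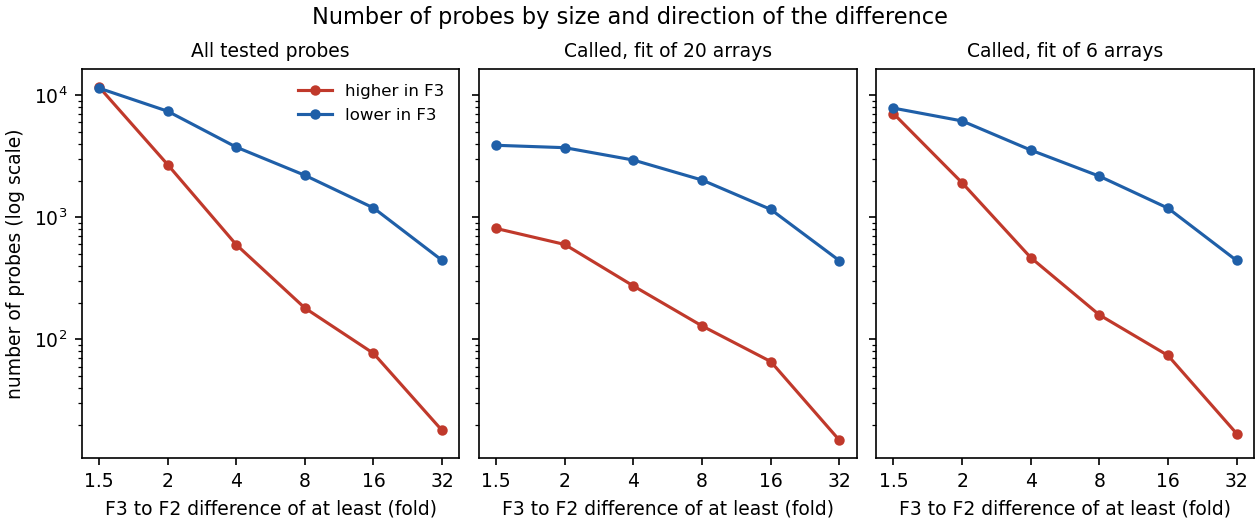
Number of probes (log axis) with a difference of at least 1.5, 2, 4, 8, 16 and 32-fold, higher (red) and lower (blue) in F3, among all tested probes (left), calls of the fit of 20 arrays (middle) and calls of the fit of 6 arrays (right). Both directions start together at 1.5-fold in the left and right panels, and decreases outnumber increases in all 3 panels from 2-fold on.

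Random probes served as the background of the call. Of the 137 that passed the same filter, 12 were called (8.76%), 1 higher and 11 lower, so that the calls were no less frequent among them than among gene-model probes (6.16%). With no filter, 14 of all 2532 random probes were called (0.553%), compared with 2.32% of all gene-model probes. What the random probes above background bound was not tested.

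Detection changed together with the levels. Of the probes that rose, 792 of 810 (97.8%) were above background in every F3 array and 634 (78.3%) in every F2 array. In no F2 array were 112 of them above it. Of the probes that fell, 2043 of 3883 (52.6%) were above background in every F3 array and 3796 (97.8%) in every F2 array. In no F3 array were 978 of them above it. Over all tested probes, 79.4% were above background in every F3 array and 78.6% in every F2 array. In F2 the probes that rose were thus detected about as often as all tested probes. A probe that is not well above local background has only a bound on its dimmer side. This was so on all F3 arrays for 410 of the probes that fell (10.6%), and on all F2 arrays for 27 of those that rose (3.33%).

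Some probes crossed the background between the stages. Of the 1964 above it in every F3 array and in no F2 array, 94 were called higher (4.79%, against 1.06% of all tested probes). Of the 1574 above it in every F2 array and in no F3 array, 895 were called lower (56.9%, against 5.09% of all). Crossing the background alone was thus seldom a called increase, and since it uses the same levels as the call, these shares are a description.

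Most calls belonged to gene models with several responding probes. In all, 2399 gene models had a called probe, 8.43% of those tested. Of these, 549 had only higher calls, 1845 had only lower calls and 5 had calls in both directions. At least 2 probes were called higher, with none lower, in 160 gene models (0.562%), and at least 2 were called lower, with none higher, in 1050 (3.69%). All 4 probes were tested and called in 23 gene models that rose and 322 that fell.

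The probes of a gene model are repeated readings of 1 transcript, and they mostly moved together. In gene models whose largest call was higher, 94.7% of the 1182 other tested probes were higher as well, and 21.7% were called higher. Over all gene models with at least 2 tested probes, 64.0% of probes were higher and 1.07% were called higher. In those whose largest call was lower, 92.8% of the 3824 other tested probes were lower and 53.2% were called lower, against 36.0 and 5.30% over all such gene models. Both shares thus lay above those of all probes in both directions. When the tested probes of each gene model were averaged first, 1841 gene models were called, of which 300 rose and 1541 fell.

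Some identifiers share a locus number and differ only in the number of the transcript. Among the 1493 loci with at least 2 tested gene models, 161 had a gene model that fell, and in 50 of these at least 2 fell. The other gene models of the 161 loci had a lower median in 58.4% of cases and a probe called lower in 22.9%, against 36.2 and 6.31% of all tested gene models in such loci. For the 60 loci with a gene model that rose, 75% of the others had a higher median and 5.65% a probe called higher, against 63.8 and 1.98% of all, and in 7 loci at least 2 gene models rose. Some probes match more than 1 transcript according to the methods, and such gene models cannot be separated here.

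The first gene model by the naming rule among those that rose was dmag2vel4f4xincok49Loc29100t2, with a median difference of 6.35 over its 3 tested probes, and 1 further probe that was not tested. Its probe 3 had levels of 11.50, 9.68 and 10.18 in F31, F32 and F33, against 4.92, 3.94 and 3.41 in F21, F22 and F23. All F3 arrays were above all F2 arrays. The fitted difference was 6.37 ± 0.94 (SE, n = 3 each, limma adjusted p = 0.00054), but the probe was marked well above background on 1 of the 3 F2 arrays only, as was probe 4, so that its F2 level is near the floor and the size is uncertain. Its probe 2 was not well above background in any F2 array. It was 47.8-fold higher in F3 when F2 levels under the array's lowest well-above level were raised to that level. This size is not a strict bound, since the probe had 4.13 in F21, unmarked, where that level was 3.70. In the other stages the gene model was high in E3 and M, with mean levels of 11.50 and 11.13, and low in E1 and F1, with 3.86 and 3.11. Its level of 7.01 in J covered a wide range, since probe 2 had 8.83, 5.53 and 2.75 on the 3 juvenile arrays.

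The second was veln4ptf060k29Loc1t79, with a median of 6.21 over 2 tested probes. Its probe 3 was not tested and had 4.14 to 4.84 on the F3 arrays and 3.45 to 3.64 on the F2 arrays. Its probe 1 had 13.95, 10.74 and 10.91 in F31, F32 and F33, against 6.02, 6.27 and 4.51 in F21, F22 and F23. F31 was the highest array by about 3 log2 units, and the difference was 6.27 ± 0.82 (SE, n = 3 each, limma adjusted p = 0.00021). Without F31 the median difference was 5.16, and both probes were still called. The gene model stood at 14.20 in E3, 12.97 in M, 8.34 in F1 and 3.81 in E1, and its probe 1 lay between 9.29 and 10.94 in J. By mean level the F3 females, with 12.00, came closest to the males, but this rested on F31. Probe 1 had 10.74 and 10.91 in F32 and F33, within its range in J, against 12.95 and 12.54 in M1 and M2. F2 females, with 5.79, lay below F1 females, a difference that was not tested.

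The first among those that fell was dmag2vel4f4xincok49Loc63t1, for which all 4 probes were called and the median difference was -7.31. Its probe 3 had levels of 5.40, 4.95 and 6.48 in F31, F32 and F33, against 13.01, 13.67 and 12.86 in F21, F22 and F23. The stages did not overlap on any of the 4 probes, and the difference of probe 3 was -7.57 ± 0.60 (SE, n = 3 each, limma adjusted p = 1.2e-05). The gene model was at about the F2 level of 13.05 in F1 (13.25), E3 (13.11) and J (12.36). It was at 7.93 in E1 and 6.29 in M, where the arrays lay apart, with 3.72 in M1 and 9.10 in M2 for probe 1.

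The second was velh8ptf050k77Loc37t4, with 3 of 4 probes tested, all called, and a median of -6.81. Its probe 3 had 9.44, 6.92 and 8.88 in F31, F32 and F33, against 15.36, 15.28 and 15.03 in F21, F22 and F23. The F2 levels were close together and near the top of the scale, and the F3 levels were spread over more than 2 log2 units. The difference was -6.81 ± 0.98 (SE, n = 3 each, limma adjusted p = 0.00043). Among the other stages, F1 females had 14.60, juveniles 12.89, late embryos 11.64, males 11.47 and early embryos 6.69.

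**Figure D3:**
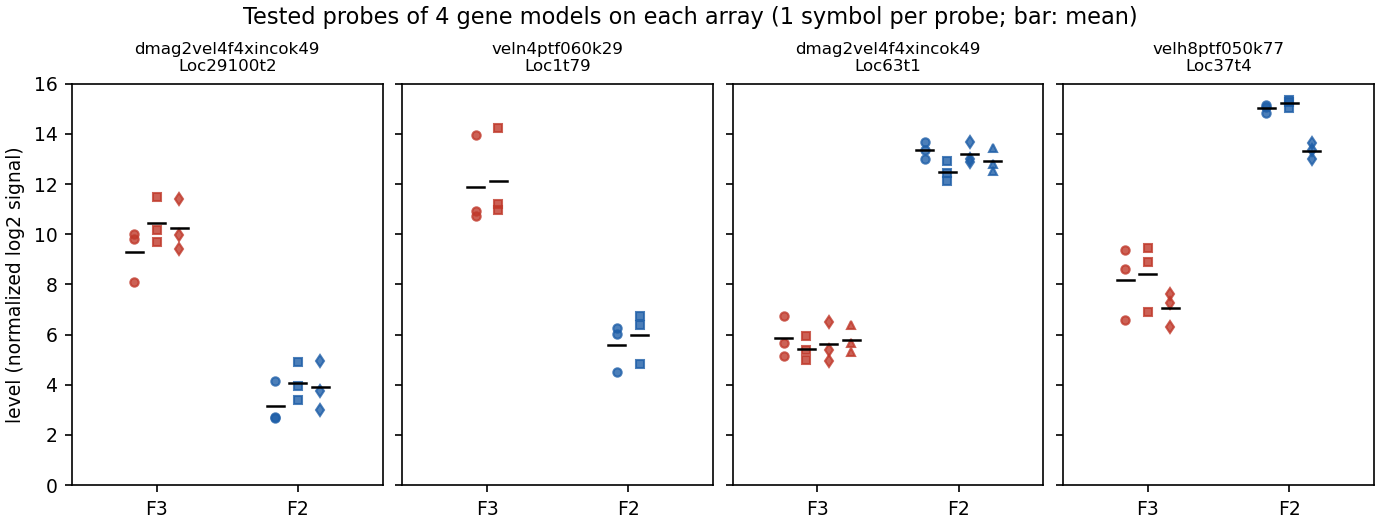
Levels (normalized log2 signal) of the tested probes of the 4 gene models on each F3 array (red, left) and F2 array (blue, right), with 1 symbol per probe and a bar at each mean. No F3 array overlaps with an F2 array for any of the 12 probes, and probe 1 of veln4ptf060k29Loc1t79 has 13.95 in F31 against 10.74 and 10.91 on the other F3 arrays.

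These 4 stood first, by median difference over all arrays, among 158 gene models that rose and 1007 that fell under the naming rule, which asks for at least 2 called probes of the same sign and arrays that do not overlap. The size of their differences depended on the background correction. With normexp on the raw signals, the medians were 3.88 and 4.95 for the increases, and -5.87 and -6.28 for the decreases, with the same probes called. The order within each pair was not stable. Of the increases, veln4ptf060k29Loc1t79 had the larger median of the pair with normexp, within slide 3, with slide as a fixed block and without F22, F32 or F33. Of the decreases, velh8ptf050k77Loc37t4 had the larger fall of the pair with normexp, with array weights and without F31 (-7.33 against -7.23 for dmag2vel4f4xincok49Loc63t1). Ranks among the other gene models under these settings are not given.

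The other 5 stages entered the call through the filter and the shared estimate of the spread, and not through the F3 minus F2 difference itself, so that the levels of the called probes there are a description. The probes that rose had median levels per array of 9.99, 9.89 and 9.84 in F31, F32 and F33, against 8.15, 8.17 and 8.03 in F21, F22 and F23. In the other stages their median was 10.20 in E3 and 10.23 in M, 9.04 in J, and lowest in F1 and E1, with 8.20 and 8.13. At F3 these probes were thus near the levels of late embryos and males, and at F2 near those of F1 females and early embryos. The median of all tested probes lay between 7.45 and 7.77 in the 7 stages.

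The probes that fell had median levels per array of 7.33, 6.21 and 6.56 in F31, F32 and F33, against 10.15, 10.17 and 9.84 in F21, F22 and F23. F31 was the least low of the F3 arrays. The median was 9.68 in F1, 9.50 in E3 and 9.14 in J. It was 8.12 in M, with 7.39 on M1, which shares a slide with 1 array each of E1, E3 and F1, and 9.12 on M2. The lowest stage was E1, with 5.09. These probes were therefore high in juveniles, late embryos and females until the middle of the cycle, and low in early embryos and in females at its end.

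**Figure D4:**
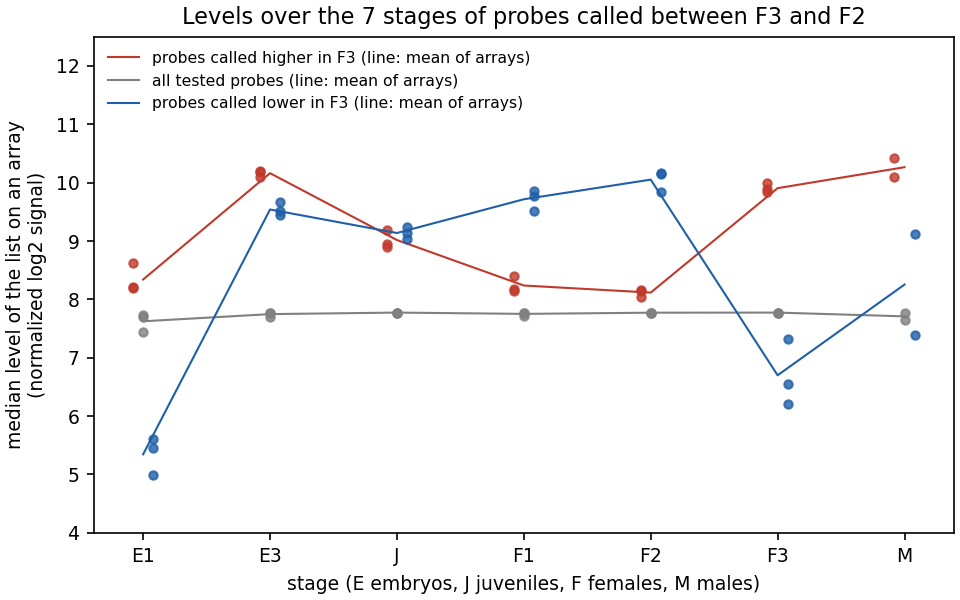
Median level (normalized log2 signal) of the 810 probes called higher in F3 (red), the 3883 called lower (blue) and all tested probes (grey) on each array of the 7 stages, with lines through the stage means of these medians. The lower list is at 4.98 to 5.61 on the E1 arrays and 6.21 to 7.33 on the F3 arrays, and above 9 on all E3, J, F1 and F2 arrays.

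Contrasts between other stages use no F2 or F3 array in their difference. Their calls share the filter and the estimate of the spread with the F3 minus F2 calls. A probe with a small spread is called more readily in all of them, so that the shares called are a description. Of the probes that fell in F3, 77.4% were called lower in E1 than in J, compared with 27.4% of all tested probes, and the median of E1 minus J was -3.20 against -0.03 over all tested probes. In F1 minus J, 2.55% were lower (5.41% of all) and 6.54% were higher (3.85% of all). In E3 minus M, 40.1% were higher, against 17.4% of all. The probes that fell were brighter in J than tested probes in general, with a median of 9.14 against 7.77.

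Of the probes that rose in F3, 26.9% were called lower in F1 than in J, compared with 5.41% of all tested probes, and the median of F1 minus J was -0.58. In E1 minus J these probes were divided, with 35.8% higher (26.4% of all) and 39.6% lower (27.4% of all). In E3 minus M, 12.7% were higher and 16.7% lower, against 17.4 and 14.9% of all. For the 7058 higher calls of the fit on 6 arrays, the medians were 7.15 in E3, 7.71 in M, 7.62 in J, 7.41 in F1 and 7.62 in E1, and 9.31% were lower in F1 than in J. The high levels in late embryos and males were thus found for the probes called with all arrays, and not for the longer list of mostly small increases. For its 7822 lower calls, 62.5% were lower in E1 than in J, and the median was 5.24 in E1.

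Most of the probes that rose were not limited to the end of the cycle. They were detected in every array of all of the other 5 stages in 43.8% of cases, against 31.6% of all tested probes. In none of these 5 were 2.59% detected, against 6.23% of all tested probes. The probes that fell were detected in all of the other 5 in 22.97% of cases (31.6% of all) and in none in 5.77% (6.23% of all). Detection in E1 was 26.6% for the probes that fell, 55.1% for those that rose and 47.4% for all tested probes. For E1, E3, F1 and M, detection in every array includes an array of slide 1, the first scanned. Those arrays, E12, E32, F13 and M1, had 25.4 to 30.0% of gene-model probes above background, against 43.5 to 46.0% in J. Detection in these stages thus depended on that slide.

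Females hold eggs in the ovary and had carried embryos until these were flushed out, and probes enriched in the embryo stages were therefore followed. E1-enriched probes, called at least 4-fold higher in E1 than in each of E3, J and M, numbered 3199. Their median level was 7.44, 7.31 and 7.39 in F31, F32 and F33, against 6.95, 6.92 and 6.93 in F21, F22 and F23, so that all F3 arrays were above all F2 arrays. Over all tested probes 63.7% were higher in F3 and the median difference was 0.19, compared with a median of 0.42 over the E1-enriched probes. Their summed signal, on the linear scale and divided by 1e+06, was 3.5997 to 3.92 in F3 and 2.72 to 2.78 in F2, and 504 of them were above background in no F3 or F2 array. Of these probes 64 rose (2.00%, against 1.06% of all) and 22 fell (0.688%, against 5.09% of all). In E1 itself their median level was 10.03.

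E3-enriched probes, 980 in number, had lower medians in F3. Their median level was 6.43, 6.12 and 6.07 in F31, F32 and F33, against 6.97, 7.13 and 7.04 in F21, F22 and F23, with no overlap. Of these probes 170 fell (17.3%, against 5.09% of all) and 15 rose (1.53%), and 161 were above background in no F3 or F2 array. The summed signal on that scale was 0.429 to 1.04 in F3 and 1.06 to 1.52 in F2. The difference of the array medians was -0.84, and it was -0.54 with a limit of 2-fold for the list and -0.26 with called probes left out, where the sums overlapped, with 0.336 to 0.996 in F3 and 0.569 to 0.9496 in F2. Most of the probes left out were called lower, so that leaving them out itself makes the difference smaller. The E3-enriched probes made up 4.38% of all probes that fell, and the E1-enriched probes made up 7.90% of all that rose. The part of embryo or egg RNA in the differences was not tested.

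The lists of J-enriched and M-enriched probes had no difference of the medians that held for all list limits. The 901 J-enriched probes had medians of 10.27 to 10.40 in F3 and 10.38 to 10.46 in F2, and the 1075 M-enriched probes 6.45 to 6.69 in F3 and 6.45 to 6.56 in F2, and the stages overlapped in both lists at this limit. Summed signals on that scale were 11.7 to 13.3 in F3 and 10.4 to 11.5 in F2 for the J-enriched probes, and 2.93 to 4.24 in F3 and 2.95 to 3.69 in F2 for the M-enriched probes. The sums of the J-enriched probes did not overlap and were higher in F3. Their median turned to higher in F3 as well with a limit of 2-fold or 8-fold for the list, without overlap at 8-fold (11.85 to 12.03 in F3 and 11.66 to 11.72 in F2). It was also higher with called probes left out (10.53 to 10.73 in F3 and 10.33 to 10.36 in F2). Those left out were 41 probes that fell and 0 that rose, so that the removal itself raises the median in F3 relative to F2. The median of the M-enriched probes turned to lower in F3 with 8-fold.

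Without F31, 4095 probes were called, 489 higher and 3606 lower. All 4693 calls kept their sign. This was nearly fixed in advance, since the F3 and F2 arrays did not overlap for 99.5% of the higher and 99.7% of the lower calls. Of the calls, 443 of the 810 that rose (54.7%) and 3293 of the 3883 that fell (84.8%) were still called. The median differences of these probes were 1.49 and -3.30 without F31, compared with 1.55 and -3.07 with it. The probes that fell therefore fell further when F31 was left out. The 3606 lower calls without F31 were lower in E1 than in J in 79.9% of cases.

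Every other array also mattered for the number of calls. There were 3234 calls without F32 (422 higher), 3240 without F33 (474 higher), 3237 without F21 (396 higher), 3221 without F22 (411 higher) and 3362 without F23 (354 higher). The number of probes that rose was thus reduced by over 1.5 times whichever array was left out. Of the 4693 calls, 2734 (58.3%) were called without each array in turn, 265 that rose and 2469 that fell.

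Each left-out array was then placed between the means of the remaining arrays, over the probes called without it, with 0 at the other stage and 1 at its own. F31 was at a median of 0.905 for higher probes and 0.694 for lower probes, and 81.6% of all probes called without it were nearer to F3. F32 was at 1.16 and F33 at 1.06 for lower probes. The F2 arrays F21, F22 and F23 were at 1.03, 1.04 and 0.908 for lower probes, and 97.8, 99.3 and 99.3% of all probes called without them were nearer to F2. F31 thus lay with the other F3 arrays for the probes that rose and part of the way towards F2 for those that fell.

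**Figure D5:**
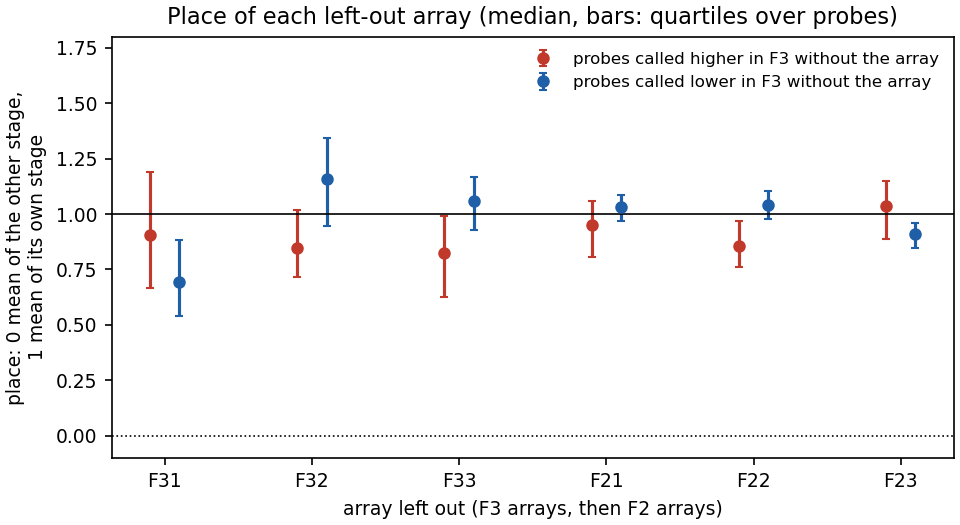
Place of each array (median over probes, bars from the lower to the upper quartile) over the probes called higher (red) or lower (blue) in F3 without that array, where 0 is the mean of the other stage and 1 the mean of its own. F31 has 0.694 for lower probes, and the other 5 arrays have 0.908 to 1.16.

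All 6 arrays were scanned on the same date. F31, F32 and F21 lay on slide 3, F33 and F23 on slide 4 and F22 on slide 5. Within slide 3 the probes that rose had a median difference of 1.61 and those that fell -3.04, and within slide 4 the medians were 1.54 and -3.13. All 4693 probes kept their sign on both slides, which hold 5 of the 6 arrays that called them. For nearly all of them the arrays did not overlap, which leaves no other outcome. With slide as a fixed block, 4472 probes were called, 789 higher and 3683 lower, and 3930 of the 4693 calls were among them.

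A probe that was not called cannot be taken as unchanged. The 95% interval of the difference lay within 1.5-fold in either direction for 3568 tested probes (4.68%), and the intervals of the others reached further.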

How the data were processed

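Total RNA of 20 *D. magna* samples in 7 stages was hybridised to single-colour Agilent arrays. The authors deposited the scanner output, spot intensity on a linear scale with background already subtracted by Feature Extraction 10.5.1.1 per the file headers, and a matrix of log2 values, quantile normalized by the authors and centred on each probe's median over all arrays, used only as an alternative. From the processed signals, log2 values were averaged per probe without control and outlier-flagged spots, with saturated ones included, and quantile normalization and fits used limma (version 3.58.1, R 4.3.3). All 20 arrays entered 1 limma fit with 7 groups. The methods' t test, fits on fewer arrays, other scalings, filters, blocks and each array left out were alternatives. Depth is not defined for arrays, and their number limits the precision. The procedure was tested on simulated data. Named gene models had at least 2 probes called one way, all tested probes of the same sign and arrays that did not overlap for at least 2 called probes, ranked by median difference, with 2 per direction because no identifier could be named. Gene lists by function were therefore not analysed here. Members and lists were chosen with earlier results of these data known.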

Additional observations from a re-analysis of the deposited data

How the results depend on the processing

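The main dependence was on the arrays that gave the spread. The fit on the 6 arrays called 14880 probes of 7819 gene models (47.4% higher in F3, 29 random probes), the 6 arrays normalized and fitted alone 14799 of 7910 (47.9%, 28), the 9 female arrays 10666 of 5667 (39.5%, 19), array weights 19089 of 10077 (50.2%, the only setting in which most calls were higher, 49 random), and scan date as a fixed block 6219 probes (24.9%, 19 random). The t test called 2752 probes at its unadjusted threshold (35.5%) and 8464 of 4786 gene models after adjustment (43.3%). Within slide 3, 389 probes of 266 gene models were called (4.88%, 3 random), and within slide 4, 12 of 12 (0%, 0 random), where a stage has 1 array and is assumed to vary like the others. The share of higher calls was 19.4% with a 75th percentile shift, 11.6% with no filter on dim probes, 19.4% with a filter on the F3 and F2 arrays, 14.0% with well above background, 13.0% with any 1 array above it, 20.8% with slide as a random block and 13.9% at 2-fold or more.

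Leaving out each array in turn gave 3221 to 4095 probes, 1686 to 2083 gene models, 9 to 11 random probes and 10.53 to 14.6% higher calls. Same-numbered F3 and F2 arrays correlated at -0.132, -0.217 and 0.114 in their deviations from the stage mean. With so few arrays per stage, these values cannot show whether the numbers pair the arrays. With the replicate number as a block, the 6 arrays gave 8581 probes of 4449 gene models (29.7% higher, 25 random). Counting only gene models with 2 or more probes called one way left 1210. The 4 named gene models kept their sign under all alternatives run, which their choice by arrays that do not overlap largely fixed in advance. Within slide 4 all 4, and within slide 3 all but dmag2vel4f4xincok49Loc63t1, had fewer than 2 called probes, as had both that rose under the t test at its unadjusted threshold.

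The F3 minus F2 difference of the array medians was 0.37 and 0.39 for E1-enriched probes at 2-fold and 8-fold, against 0.45 at 4-fold. At 8-fold it rested mainly on F31, with 6.54, since F32 and F33 had 5.97 and 5.90, against 5.69 to 5.85 in F2. For E3-enriched probes the difference was -0.54 at 2-fold, against -0.84 at 4-fold. After seeing the data, called probes, which were mostly decreases in the E3-enriched and J-enriched lists, were left out. This removal itself shifts the difference upwards in these lists, and the difference was -0.26 for E3-enriched probes. For J-enriched probes it was -0.084 at 4-fold, 0.088 at 2-fold, 0.27 at 8-fold and 0.29 without called probes, and for M-enriched probes 0.10 at 4-fold and -0.10 at 8-fold. Lists called without F31 had medians of -0.70 in E1 minus J and -0.12 in E3 minus M for the probes that rose. Lists called on the 6 arrays, also added after seeing the data, had medians of 0.20 in E1 minus J, against -0.21, -0.20 in F1 minus J and -0.30 in E3 minus M for the probes that rose, and -2.24, 0.27 and 0.85 for those that fell. The cause of these shifts was not tested.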
